A study of Arabidopsis thaliana with 4 samples.

Results

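The nuclear genes AT5G51440, listed as a mitochondrial small heat shock protein gene, and AT2G21640, listed as a marker of mitochondrial oxidative stress, were followed in Arabidopsis thaliana of the ecotype Nossen. Among 9253 genes with a named probe, these 2 were chosen by their own log2 ratios, high in mutants of chromatin assembly factor 1 (CAF-1) or after gamma-irradiation, so those values are a description and carry no test. Both members were measured, each by 1 probe.

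Small heat shock proteins bind partly unfolded proteins and keep them from clumping until other chaperones refold them, and a few of them work inside mitochondria. When the respiratory chain is disturbed, plant mitochondria signal to the nucleus, and transcripts for alternative oxidase, alternative NAD(P)H dehydrogenases, mitochondrial chaperones and detoxifying enzymes accumulate. This retrograde response overlaps with the response to reactive oxygen species. CAF-1 loads H3 and H4 histones onto DNA behind the replication fork, and gamma-rays break DNA and also produce reactive oxygen species in cells.

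RNA came from 4-week-old plants grown on MS medium. The fas1-2 mutant, with a mutation in the p150 subunit of CAF-1, and the fas2-2 mutant, with one in the p60 subunit, were each compared with wild type. Irradiated wild type received 100 Gy of gamma-rays at a rate of 300 Gy/h, was harvested 6 h or 12 h later and was compared with wild type that had not been irradiated. The sample labels name rosette leaves, while the design text names seedlings without roots. Each of the 4 conditions was hybridised on 1 Agilent 2-colour array, with the mutant or irradiated RNA in the red dye (Cy5) and wild type in the green dye (Cy3), and without a dye swap. Pooling of plants and the reuse of a wild-type RNA between arrays are not mentioned in the labels. A dye effect of a gene, or wild-type RNA shared by the arrays, would enter each of its ratios with the same sign. Whether such an effect adds to any gene standing on the same side of wild type on all 4 arrays was not tested. A part equal on all 4 arrays cancels only when mutants and irradiated arrays are compared with each other.

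Values are log2 ratios of the mutant or irradiated RNA over wild type, so 1 is a 2-fold higher and -1 a 2-fold lower level. The direction is the likely one, since the labels fix the dyes and the scanner software writes red over green; the log base was likewise taken from that software. With the sign turned, every rank from the top below would be the same rank from the bottom and every fold its inverse: AT5G51440 would be at 0.262 of the wild-type level in fas1-2 and 0.213 in fas2-2, the 25th and 11th lowest, and AT2G21640 at 0.208 at 6 h and 0.353 at 12 h, the 9th and 30th lowest. No condition had replicates. As a guide to measurement error, transcripts spotted more than once on an array had a pooled SD between spots of 0.236 in fas1-2, 0.284 in fas2-2, 0.25 at 6 h and 0.269 at 12 h (log2). This SD holds neither the spread between plants nor that between labelling reactions. It applies to values on 1 array, so a difference between 2 arrays has a larger measurement error. Precision is limited by the number of arrays.

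AT5G51440 stood above wild type on all 4 arrays, and furthest above it in the mutants. All 4 arrays had wild type in the same dye, and the share of a dye effect in these ratios was not tested. Its log2 ratio was 1.93 in fas1-2, a 3.81-fold higher level than in wild type. In fas2-2 the ratio was 2.23, or 4.69-fold. It ranked 25th from the top of the 9253 genes in fas1-2 and 11th in fas2-2, where the share of all genes at least 2-fold higher was 1.58% and 1.77%. The mutants differed from each other by -0.30 (fas1-2 minus fas2-2), a gap about as wide as the SD between spots and wider than that of 76.3% of genes.

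After irradiation AT5G51440 was again above wild type, by less than in the mutants. The ratio was 1.07 at 6 h (2.1-fold) and 0.64 at 12 h (1.56-fold). It ranked 153rd at 6 h, where 1.88% of all genes were at least 2-fold higher, and 220th at 12 h, where 0.908% were. The value at 12 h was 0.43 lower than at 6 h. The mean of the mutants was 2.08 and that of the irradiated arrays 0.86, a difference of 1.22, and 98.1% of genes had a smaller one.

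AT2G21640 had the reverse order, with its highest values after irradiation. The ratio was 2.27 at 6 h, or 4.81-fold, which placed it 9th from the top. At 12 h it was 1.5, or 2.83-fold, in 30th place. The drop of 0.76 between the times was larger than the SD between spots of either array and larger than the change of 94.4% of genes. Even so, the gene remained more than 2-fold above wild type at both times.

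The mutants did not share a direction for AT2G21640. It stood at 0.93 in fas1-2 (1.91-fold), in 170th place, and at -0.32 in fas2-2, where wild type was 1.25-fold higher and 88.6% of genes had a ratio at or above it. The fas2-2 value lay only slightly further from 0 than the SD between spots. The gap of 1.26 between the mutants was wider than that of 98.4% of genes. The mean was 0.31 in the mutants and 1.88 after irradiation, a difference of -1.58.

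Set against each other, AT5G51440 exceeded AT2G21640 by 1.0 in fas1-2 and by 2.55 in fas2-2, as a difference of log2 ratios. After irradiation the order turned: the difference was -1.20 at 6 h and -0.86 at 12 h. These are differences between 2 changes relative to wild type, not between transcript levels, which the ratios do not give.

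**Figure D1:**
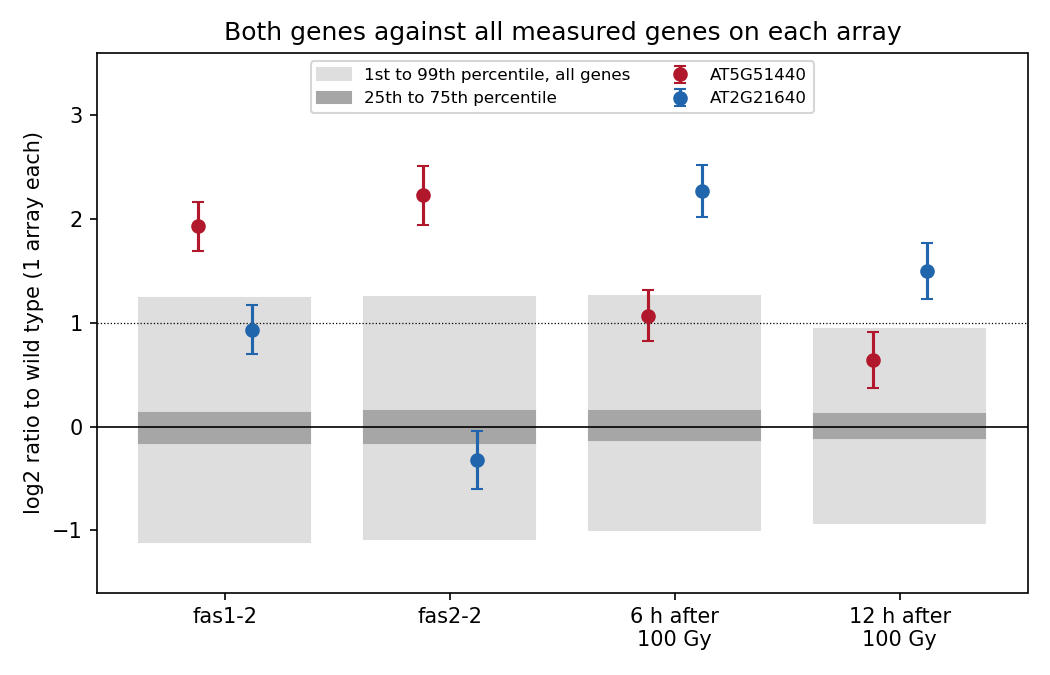
Log2 ratio to wild type of AT5G51440 (red) and AT2G21640 (blue) on each of the 4 arrays, with bars of 1 pooled SD between spots of a transcript (0.236 to 0.284) and grey bands for all 9253 genes; the dotted line marks 2-fold. AT5G51440 lies above the 99th percentile in fas1-2 and fas2-2 (1.93 and 2.23), and AT2G21640 lies above it at 6 h and 12 h (2.27 and 1.5) but below 0 in fas2-2 (-0.32).

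The surrounding pathway was described with 12 lists of mitochondrial, heat shock, oxidative stress and DNA damage genes, 180 loci in all, of which 43 had a named probe. Loci are given by number where the reference lists no symbol. Their place in a list comes from general knowledge of the families. The lists, tissue markers included, were chosen with earlier results of these data known, so p-values of their genes are no independent support. A gene is called measured if it had a named probe, and 13200 features had no gene name. Leaving out AT5G51440 and AT2G21640, 0 of the 41 other genes passed limma's test (adjusted p under 0.05 over all 9253 genes) in the mutants, after irradiation or for the difference between them. Of all genes, 0.119% passed in the mutants and 0.0% in each of the other comparisons. Unadjusted p-values under 0.05 were found in limma for 11 of the 41 in the mutants (8 higher, 3 lower), 8 after irradiation (7 higher, 1 lower) and 9 for the difference, where 20.9%, 14.6% and 14.3% of all genes had one. The test rests on how far fas1-2 differs from fas2-2 and 6 h from 12 h, with 2 residual degrees of freedom. By size, 1 of the 41 was 2-fold or more above wild type in fas1-2 and 1 was as far below it, where 1.58% and 1.29% of all genes were. In fas2-2 1 was above and 3 below, where 1.77% and 1.34% of all genes were. At 6 h 1 was above and 0 below (1.88% and 1.01% of all genes), and at 12 h 0 reached 2-fold either way (0.908% and 0.746%). Probe sequences were not used here, so cross-hybridisation among similar family members was not checked.

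The other measured small heat shock protein genes stood closer to wild type than AT5G51440 on each of the 4 arrays. AT5G51440 was chosen by its own high ratios, so its place above its family is a description and no test. AT1G52560, the other measured locus in the list of mitochondrial small heat shock proteins, was below wild type on every array. Its ratio was -0.28 in fas1-2 and -1.13 in fas2-2, then -0.60 at 6 h and -0.12 at 12 h (adjusted p = 0.248 in the mutants and 0.564 after irradiation in limma). The value at 12 h was within the SD between spots of 0. Of the 3 listed loci only these 2 were measured.

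Of 9 measured small heat shock proteins of other compartments, 6 were above 0 in fas1-2 and 8 in fas2-2, where 49.3% and 48.2% of all genes were. Their medians were 0.342 and 0.345, against -0.003 and -0.01 for all genes. None passed limma's adjusted test. At an unadjusted p under 0.05, 6 of the 9 were higher in the mutants and 0 lower, where 9.59% of all genes were higher and 11.3% lower. The smallest adjusted p was 0.0757, that of AT2G29500, at 0.71 in fas1-2 and 0.63 in fas2-2. AT4G21870 stood at 0.48 and 1.0, and AT1G53540 at 0.44 and 0.53. The exceptions were AT2G19310, at -0.25 in fas1-2 and -1.56 in fas2-2, and AT1G54050, at -0.84 and 0.25. ATHSP22.0 (AT4G10250) was at -0.09 and 0.35. The highest of the 9 in each mutant, 0.71 in fas1-2 and 1.0 in fas2-2, was below AT5G51440.

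After irradiation the same 9 genes had medians of 0.05 at 6 h and 0.05 at 12 h, and a range of -0.24 to 0.32 at 6 h and -0.24 to 0.16 at 12 h. At 6 h 6 of them were above 0, and at 12 h 5 were, against 50.1% and 51.1% of all genes. By limma's unadjusted p under 0.05, 1 was higher and 0 lower, where 7.51% and 7.12% of all genes were. AT5G51440, at 1.07 and 0.64, was above the range of these 9 at both times as well, but it was chosen by its own ratios. In the list of heat shock factors and large chaperones, 2 of 24 loci were measured: the locus AT3G09440 was at 0.00 and -0.18 in fas1-2 and fas2-2 and at 0.53 and 0.21 at 6 h and 12 h, and BOB1 (AT5G53400), a protein needed for thermotolerance, ranged from 0.02 to 0.33.

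**Figure D2:**
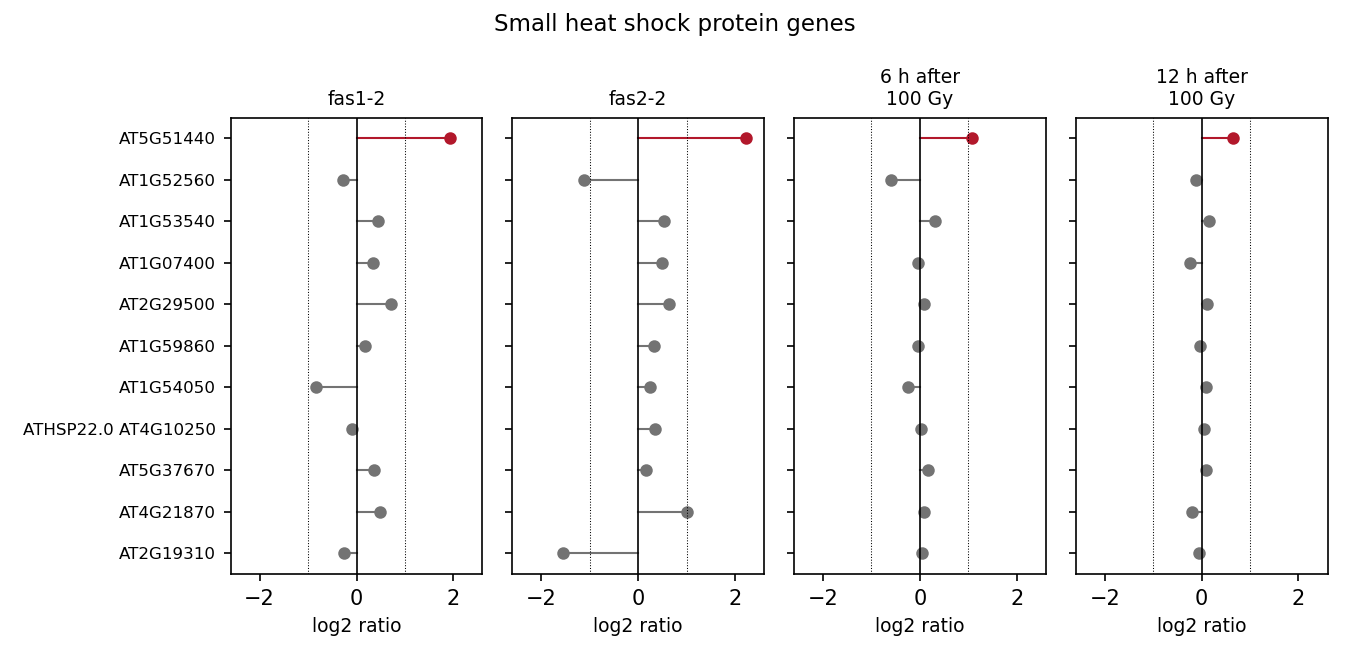
Log2 ratio to wild type of AT5G51440 (red, top), the other measured mitochondrial small heat shock locus AT1G52560 and 9 small heat shock loci of other compartments, 1 panel per array; dotted lines mark 2-fold. AT5G51440, chosen by its own ratios, has the highest value in each panel, while AT1G52560 is below 0 in all 4.

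Among the genes that respond to mitochondrial dysfunction, 5 of 17 listed loci were measured besides AT5G51440 and AT2G21640. All 5 were above 0 in fas1-2 and 4 in fas2-2, where 49.3% and 48.2% of all genes were, with medians of 0.19 and 0.13. On any array 0 of the 5 reached 2-fold, where 743 of all 9253 genes did on some array. At 6 h all 5 were above 0 with a median of 0.44, and at 12 h 3 were, with a median of 0.01. Of all genes 50.1% and 51.1% were above 0 at these times. NDB2 (AT4G05020), an alternative NAD(P)H dehydrogenase of the inner mitochondrial membrane, stood at 0.13 in fas1-2, -0.02 in fas2-2, 0.49 at 6 h and 0.15 at 12 h. The locus furthest from wild type was AT5G43450, at 0.41 and 0.51 in the mutants, 0.89 at 6 h and -0.10 at 12 h. AT2G32020 was at 0.19 and 0.24, then at 0.44 and 0.14. AT5G09570 ranged from 0.01 to 0.29, and AT2G41730 from -0.19 to 0.15.

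The smallest adjusted p in limma among these 5 was 0.265 in the mutants and 0.325 after irradiation. At an unadjusted p under 0.05, 0 of them were called in the mutants and 1 after irradiation (AT2G32020, higher), against 20.9% and 14.6% of all genes. All 5 stood below AT5G51440 on each array, and below AT2G21640 except in fas2-2, but AT5G51440 and AT2G21640 were chosen by their own ratios. Of the 10 loci listed as regulators of this response 0 had a named probe, so they were not analysed here; the same holds for the listed alternative oxidase loci.

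AT2G21640 also belongs to a list of 5 transcripts used as hallmarks of oxidative stress, of which 2 others were measured. AT1G05340 was above wild type everywhere, at 0.33 in fas1-2, 0.23 in fas2-2, 0.84 at 6 h and 0.45 at 12 h (adjusted p = 0.242 after irradiation and 0.289 in the mutants in limma). AT1G19020 stood at 0.00 and 0.06 in the mutants, 0.34 at 6 h and -0.15 at 12 h (adjusted p = 0.783 after irradiation). Both hallmarks had their highest value at 6 h, as did AT2G21640, but neither reached 2-fold.

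**Figure D3:**
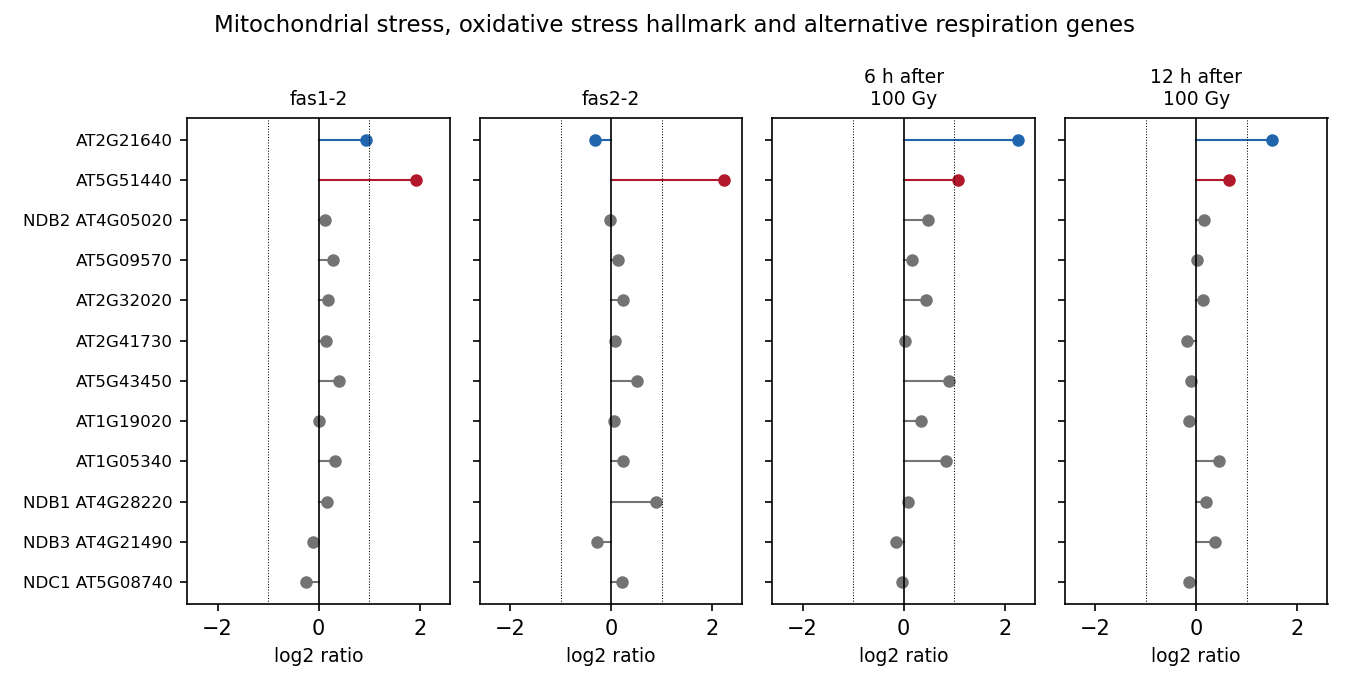
Log2 ratio to wild type of AT2G21640 (blue) and AT5G51440 (red) above 10 measured genes of the mitochondrial stress, oxidative stress hallmark and alternative respiration lists, 1 panel per array; dotted lines mark 2-fold. None of the 10 grey genes reaches 2-fold, the furthest being NDB1 in fas2-2 (0.90) and AT5G43450 at 6 h (0.89).

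Alternative respiration was represented by 4 of 17 loci, all NAD(P)H dehydrogenases that bypass complex I or act in the plastid as well. NDB1 (AT4G28220) was at 0.17 in fas1-2 and 0.90 in fas2-2, and at 0.09 and 0.19 at 6 h and 12 h (adjusted p = 0.251 in the mutants in limma). NDB3 (AT4G21490) was at -0.11 and -0.28 in the mutants and -0.15 and 0.38 after irradiation. NDC1 (AT5G08740) ranged from -0.25 to 0.21. No common direction was seen among them, with 2 of 4 above 0 in each mutant and at 6 h, and 3 of 4 at 12 h.

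The respiratory chain and ATP synthase list had 12 of 21 loci measured, and 0 reached 2-fold, where 743 of all 9253 genes did on some array. At 6 h 11 of 12 were above 0, with a median of 0.23, against 50.1% of all genes and a median of 0.00. At 12 h 7 were, with a median of 0.05, against 51.1% of all genes. In the mutants 6 were above 0 in fas1-2 and 9 in fas2-2, with medians of 0.02 and 0.12, against 49.3% and 48.2% of all genes. CYTC-2 (AT4G10040), a cytochrome c that carries electrons to complex IV, was the highest of the 12 on 3 arrays, at 0.43 in fas1-2, 0.52 in fas2-2 and 0.68 at 6 h, and stood at 0.15 at 12 h, where AT3G15640 was highest at 0.46 (CYTC-2: adjusted p = 0.219 in the mutants and 0.347 after irradiation in limma). SDH1-1 (AT5G66760), the flavoprotein subunit of succinate dehydrogenase, stood at -0.28 in fas1-2 and 0.42 in fas2-2. For mitochondrial chaperones and proteases 1 of 21 loci was measured, the protease subunit NCLPP7 (AT5G23140), at -0.14, -0.42, 0.19 and 0.16 in fas1-2, fas2-2, 6 h and 12 h. For mitochondrial protein import 1 of 8 was, AT2G19080, which ranged from -0.12 to 0.17.

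In the oxidative stress and glutathione list 5 of 27 loci were measured, and 2 of them reached 2-fold on some array. Of the 41 genes of all lists 5 did, and of all 9253 genes 743 did. STZ (AT1G27730), a zinc finger repressor of abiotic stress responses, stood at -1.64 in fas1-2 and -1.12 in fas2-2, but at 1.16 at 6 h and 0.02 at 12 h (adjusted p = 0.163 in the mutants and 0.473 after irradiation in limma). It thus lay on the opposite side of wild type from AT5G51440 in both mutants. GSTU25 (AT1G17180), a glutathione transferase, was at 1.28 in fas1-2 and -0.08 in fas2-2, beside 0.93 and -0.32 for AT2G21640, and at -0.08 and -0.09 after irradiation. The thioredoxin TO1 (AT2G35010) ranged from 0.11 to 0.20, and the glutathione reductases GR1 (AT3G24170) and GR (AT3G54660) lay between -0.36 and 0.46.

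The genes nearest to each member were found by Euclidean distance over the 4 log2 ratios, among all 9253 genes. Nearest to AT5G51440 was AT1G23140 at a distance of 0.94, with 1.55 in fas1-2, 2.24 in fas2-2, 0.31 at 6 h and 0.25 at 12 h. It was also the gene ranked directly above AT5G51440 in fas2-2. The gene ranked directly below it there, AT3G49210 (2.18), stood at 0.32 in fas1-2, -0.05 at 6 h and -0.63 at 12 h. AT4G16563 (1.95, 1.69, 0.42 and 0.18 on the arrays in the same order), AT5G53150 (2.0, 2.29, 0.16 and 0.04), the anthocyanin enzyme gene DFR (AT5G42800; 2.13, 2.04, -0.01 and 0.77) and AT1G65220 (1.92, 2.16, -0.01 and 0.03) followed. These 5 genes were picked by the same values, so mutant values like those of AT5G51440 were built in. At 6 h all 5 were below the 1.07 of AT5G51440. By Pearson correlation of the 4 values 0 of the 5 were kept.

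Nearest to AT2G21640 was AT2G36780 at a distance of 0.88, with 0.12 in fas1-2, 0.01 in fas2-2, 2.27 at 6 h and 1.38 at 12 h; it was also ranked directly above it at 6 h. Directly below it at 6 h was AT2G37240 (2.22), which stood at 0.84 in fas1-2, 1.19 in fas2-2 and 1.58 at 12 h. AT3G53040 (0.36, -0.07, 2.28 and 0.87), AT1G10050 (0.27, 0.33, 2.05 and 1.58), AT4G25580 (0.01, -0.08, 1.67 and 1.47) and AT3G21080 (1.15, 0.00, 1.5 and 0.70) followed. In fas2-2 none of the 5 was as low as AT2G21640 at -0.32. In fas1-2 AT3G21080 exceeded its 0.93. The members themselves were 3.11 apart; from a gene at 0 on every array, AT5G51440 was 3.2 and AT2G21640 was 2.89 away.

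**Figure D4:**
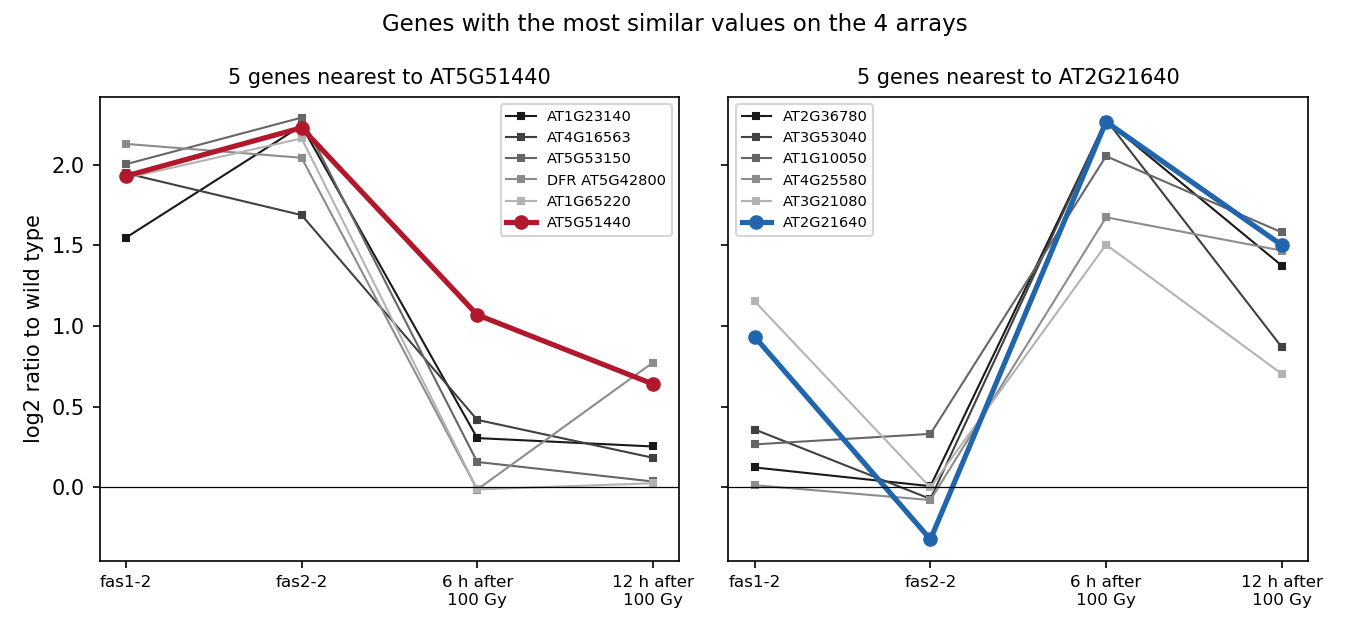
Log2 ratio to wild type on the 4 arrays for AT5G51440 (red, left panel) and AT2G21640 (blue, right panel), each with its 5 nearest genes in grey; lines only join the values of 1 gene. At 6 h AT5G51440 (1.07) is above all 5 of its nearest genes, the highest of which is at 0.42, and in fas2-2 AT2G21640 (-0.32) is below all 5 of its own.

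Genes beside the members on the chromosomes stayed within 2-fold of wild type. Of the 5 measured genes on each side of AT5G51440, on chromosome 5, 0 reached 2-fold on any array. Of all 9253 genes 743 did on some array, so a count of 0 among 10 neighbours does not set the region apart. AT5G51410, before AT5G51440, was at -0.16 and 0.02 in fas1-2 and fas2-2 and at -0.36 and -0.23 at 6 h and 12 h. Between them lay 3 reference loci without a named probe. AT5G51490, after AT5G51440, was at 0.14 and 0.28, then at 0.14 and 0.12, with 6 such loci in between. The largest absolute ratio among the 10 neighbours was 0.42 in the mutants and 0.70 after irradiation.

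The same held for AT2G21640 on chromosome 2. Its direct neighbour AT2G21630 was at -0.19 in fas1-2 and 0.40 in fas2-2, and at -0.22 and 0.01 at 6 h and 12 h. On the other side, beyond 19 loci without a named probe, AT2G21780 ranged from -0.09 to 0.05. The largest absolute ratio among the 10 neighbours of AT2G21640 was 0.57, at 6 h.

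**Figure D5:**
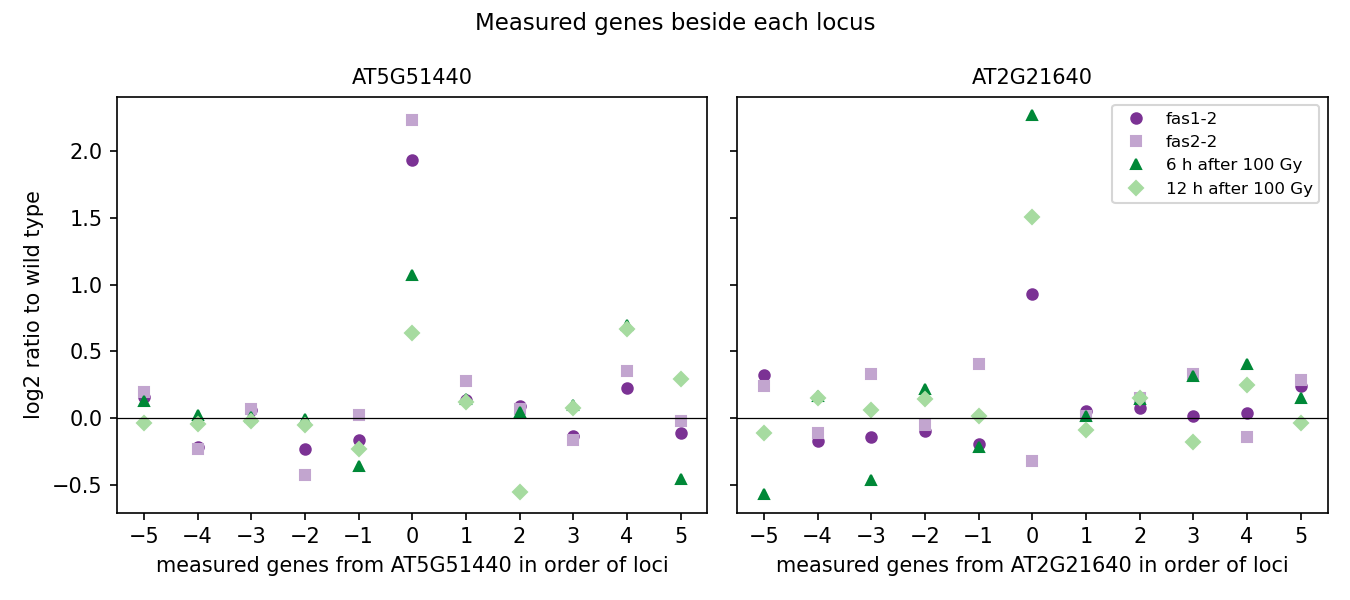
Log2 ratio to wild type of AT5G51440 (left panel) and AT2G21640 (right panel), at position 0, and of the 5 measured genes on each side in the order of loci, with 1 symbol per array. All neighbours stay within 0.70 of 0. AT5G51440 is above its 10 neighbours on 3 arrays but not at 12 h (0.64, against 0.67 for AT5G51540), and AT2G21640 is above its own except in fas2-2 (-0.32).

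Markers of other tissues were set beside these values. The arrays give ratios and no levels, so the labelled leaf tissue could not be checked by the presence of a marker. Of the leaf markers 1 of 6 was measured, RCA (AT2G39730), at -0.05 and -0.20 in fas1-2 and fas2-2 and at -0.49 and -0.17 at 6 h and 12 h. Of the root markers 4 of 5 were measured, with medians of 0.06, 0.46, -0.32 and 0.06 in fas1-2, fas2-2, 6 h and 12 h. They did not move together, with a range over all arrays of -1.55 to 1.0. PYK10 (AT3G09260) was at 0.34, 1.0, -0.40 and 0.03 on the arrays in the same order. EXPA8 (AT2G40610) was at -0.20, -0.74, -1.55 and -0.99, and EXPA7 (AT1G12560) at -0.03, 0.73, -0.23 and 0.13. EXPA18 (AT1G62980) stood between 0.09 and 0.19. By limma's unadjusted p under 0.05, PYK10 was higher in the mutants and EXPA8 lower after irradiation (adjusted p = 0.219 and 0.231). Of all genes, 9.59% were higher in the mutants and 7.12% lower after irradiation at that threshold. RCA was also lower after irradiation by that measure, and PYK10 had such a p for the difference (adjusted p = 0.319 and 0.348). The markers were listed with earlier results known, so these calls are no independent support. Of the tapetum markers 4 of 9 were measured, and 3 of them were high at 12 h: AMS (AT2G16910) at 3.42, SHT (AT2G19070) at 3.39 and ATA27 (AT1G75940) at 2.83. At 6 h these were at 1.73, -1.11 and -0.37, whereas AT2G21640 was higher at 6 h than at 12 h. AMS had an unadjusted p under 0.05 in limma after irradiation (higher) and for the difference (adjusted p = 0.258 and 0.269). Of all genes, 7.51% were higher after irradiation at that threshold and 14.3% had such a p for the difference. In the mutants AMS was at -1.54 in fas1-2 and 0.00 in fas2-2, ATA27 at -0.62 and -1.27, and SHT at 0.00 on both arrays, beside 1.93 and 2.23 for AT5G51440. The values of AMS in fas2-2 and SHT in fas1-2 were exact zeros. Signal over background was not judged, so these zeros cannot be read as a level equal to wild type. The remaining one, AT5G07230, ranged from -0.02 to 0.09 over the 4 arrays. Their part in the values of AT5G51440 and AT2G21640 was not tested. For the DNA damage response 0 of 19 listed loci had a named probe, so the effect of the irradiation was not checked on them, and FAS1 and FAS2 were not analysed here.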

How the data were processed

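The authors deposited a log10 ratio for each of 22575 features on each array (-1.8 to 1.66). Agilent Feature Extraction made them, per the submitters' processing notes; its version, the background correction and the dye normalization are not given in the sources used here. Column medians of the deposited log10 ratios lay between -0.0014 and -0.0004. Multiplication by 3.32 turned them into log2 ratios. Spot intensities were not used here, so signal over background and saturation were not judged, and exact zeros (131 to 245 per array) were kept. A probe annotation of 2007 gave 1 gene name to 9335 features, several to 40 and none to 13200; names were updated through gene identifiers to the TAIR10.1 list (9317 matched), which gave symbols and the sequence of loci but no coordinates. Probes of a gene were averaged (79 genes had several).

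Genes (9253) were tested with limma 3.58.1 in R 4.3.3, using lmFit, eBayes and Benjamini-Hochberg adjustment: the mutant arrays and the irradiated arrays each had a mean, which was set against 0 and against the other mean. The fit was also run on simulated data with independent errors and known shifts. These held no dye effect and no shared wild type, so that run cannot judge the design. The error of the limma test comes from fas1-2 against fas2-2 and 6 h against 12 h, so it also holds differences between these conditions. It leaves out the spread of wild type. The dyes were the same way round on every array, so a dye effect of a gene stays in the means set against 0. The size of such an effect was not tested. Separate cultures are not given in the labels, so the p-values do not measure the spread between independently grown plants of a condition. The members and lists were chosen with earlier results of these data known. Named genes are the members, all measured genes of the mitochondrial small heat shock, mitochondrial stress and hallmark lists, genes of other lists at least 2-fold from wild type (else those with the largest ratios), the 5 nearest genes, and the neighbours by locus and rank; some further list genes are named for range. Alternatives were centring, scaling to one spread, robust moderation, all features, leaving out each array, reading the values as log2, and another measure of likeness.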

Additional observations from a re-analysis of the deposited data

Results flagged for a closer look

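Among 62 genes checked, 4 had ratios on opposite sides of wild type in the mutants or at the times, each further from 0 than the pooled SD between spots. With 1 array per condition none of these differences was tested. AT2G21640 differed by 1.26 between fas1-2 and fas2-2 (0.93 and -0.32), and SDH1-1 (AT5G66760) by -0.70 (-0.28 and 0.42). Between 12 h and 6 h, the tapetum gene SHT (AT2G19070) differed by 4.5 (3.39 and -1.11) and ATA27 (AT1G75940) by 3.2 (2.83 and -0.37).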

How the results depend on the processing

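The 11 genes that passed limma in the mutants fell to 0 with arrays centred on their medians, scaled to one spread or fitted with robust moderation, and to a range of 0 to 0 when any array was left out; the lone array of a setting was then assumed to vary like the other setting. With all 22575 features, unnamed ones included, 756 features passed in the mutants, of which 600 were lower and 156 higher, and 624 passed after irradiation, of which 512 were lower and 112 higher, against 11 and 0 genes; the cause was not tested. For mutants minus irradiation the count was 0 under each alternative, with 1326 genes at an unadjusted p under 0.05 in the main setting. Centring moved all 8 ratios of AT5G51440 and AT2G21640 by less than the SD between spots, and scaling moved 1 of them by more, AT2G21640 at 12 h, to 1.78. Read as log2 rather than log10, 7 of the 8 moved further: AT5G51440 would stand at 0.58 in fas1-2 and 0.67 in fas2-2, and AT2G21640 at 0.68 at 6 h and 0.45 at 12 h, with the ranks unchanged. Among all features AT2G21640 ranked 38th at 6 h. With scaling, 4 of the 5 nearest genes of each member were kept, and 0 by Pearson correlation of the 4 values. No paired analysis was possible because each condition has 1 array. The signal over background was not available to set a limit on dim probes.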
